A study of Homo sapiens with 8 samples.

Results

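The 10 genes described here, SOX1, SOX2, SOX4, SOX7, SOX9, SOX11, SOX14, SOX17, SOX18 and SOX21, encode SOX transcription factors. They were chosen by name, and each was read over its gene body and the 2000 bp upstream of its start in GRCh37 (hg19). They are 10 of 20090 protein-coding genes on chromosomes 1 to 22 and X, and another 9 SOX genes on those chromosomes are used for comparison. The data came from chromatin immunoprecipitation followed by sequencing (ChIP-seq) in PC9, an established human lung adenocarcinoma cell line, for H3K27me3 and for H3K4me3. Cells were grown for 5 days either in DMSO, the vehicle, or in 1 μM GSK126, a small molecule that inhibits EZH2, and each mark had 2 libraries from each treatment. Chromatin from D. melanogaster and an antibody to its histone variant H2Av were added to the reactions of both treatments as an internal reference. PC9 is a single cell line, so the replicates measure the spread within that line.

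SOX proteins bind DNA through an HMG box related to that of SRY and are sorted into lettered subgroups by sequence. Many of them direct cell fate in the embryo, in neural tissue, endoderm, cartilage or vessels, and they are well-known targets of Polycomb repression where they are silent. EZH2 is the catalytic subunit of the Polycomb repressive complex PRC2, which trimethylates lysine 27 of histone H3, whereas H3K4me3 is found around the starts of active or poised genes.

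The 10 SOX genes were short, with regions of 4.02 to 11.002 kb and a median of 5.758 kb against 29.3 kb over all protein-coding genes. In the 300 bp upstream of the start, the members held between 14 and 39 CG dinucleotides, with a median of 22, whereas the median over 20086 protein-coding genes was 16. SOX1 and SOX7 held the most, 39 and 38, and 6.82% and 7.76% of all genes held at least as many. The sequences upstream of the SOXB1 members SOX1 and SOX2 are printed because these related genes carried different marks, H3K27me3 around SOX1 and H3K4me3 over SOX2. Each is GRCh37 sequence, written 5′ to 3′ on the strand of the gene, and capitals mark CG dinucleotides. Both genes lie on the plus strand, and their sequences run over chr13:112721163-112721462 and chr3:181429413-181429712.
SOX1: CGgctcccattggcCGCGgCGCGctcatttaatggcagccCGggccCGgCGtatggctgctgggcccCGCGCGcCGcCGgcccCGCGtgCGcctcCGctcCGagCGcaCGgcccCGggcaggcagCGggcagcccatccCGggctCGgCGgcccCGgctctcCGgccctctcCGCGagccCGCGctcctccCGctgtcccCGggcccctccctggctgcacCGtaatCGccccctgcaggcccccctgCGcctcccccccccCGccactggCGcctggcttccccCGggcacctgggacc
SOX2: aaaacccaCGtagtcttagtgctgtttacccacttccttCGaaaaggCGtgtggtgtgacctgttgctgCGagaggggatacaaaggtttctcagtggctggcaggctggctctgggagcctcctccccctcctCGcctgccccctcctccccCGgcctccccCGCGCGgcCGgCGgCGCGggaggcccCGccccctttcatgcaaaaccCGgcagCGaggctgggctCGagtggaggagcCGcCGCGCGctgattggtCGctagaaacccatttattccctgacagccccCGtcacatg
In these 300 bp SOX1 held 39 CG dinucleotides and SOX2 held 23, and 33.5% of all genes held at least as many as SOX2.

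The authors deposited islands, which are runs of 200-bp windows enriched in tags over a random background, and not tag counts. A covered length is the number of bases of a gene region that lie in islands, and the absence of an island says only that the region did not pass the threshold of that list. Each list came from 1 library under 1 of 2 normalizations. In the standard lists both libraries of a replicate had been reduced to the same number of human tags, and in the spike-in lists the GSK126 library had been reduced by the number of D. melanogaster tags. The H3K4me3 libraries under DMSO had a single list, which served both comparisons. The tag density behind each list was read from the scores of its smallest islands. In the spike-in lists the GSK126 density divided by the DMSO density came to 0.231 and 0.196 for H3K27me3 in replicates 1 and 2, and to 0.836 and 0.869 for H3K4me3. In the standard lists the density differed by at most 0.000865%. H3K4me3 replicate 2 was the shallowest, with 0.302 tags expected per window against 1.77 in replicate 1, and its islands covered 40 Mb under DMSO against 85.2 Mb. Among marker genes of cell types, islands of H3K4me3 covered the starts of 5 of 9 lung or epithelial genes in both DMSO libraries, namely CDH1, KRT8, KRT18, KRT19 and EGFR. Over all protein-coding genes the share was 55.9%, so this count alone does not identify the cell type. EPCAM and NKX2-1 were covered in replicate 1 alone, and NAPSA and SFTPB were not covered. None of 6 marker genes of blood, endothelium or fibroblasts was covered in both libraries, and COL1A1 was covered in replicate 1. With 2 pairs of libraries the smallest two-sided p that an exact sign-flip test over samples can give is 0.5, so no comparison of treatments was tested, and the values of both replicates are given.

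**Figure D1:**
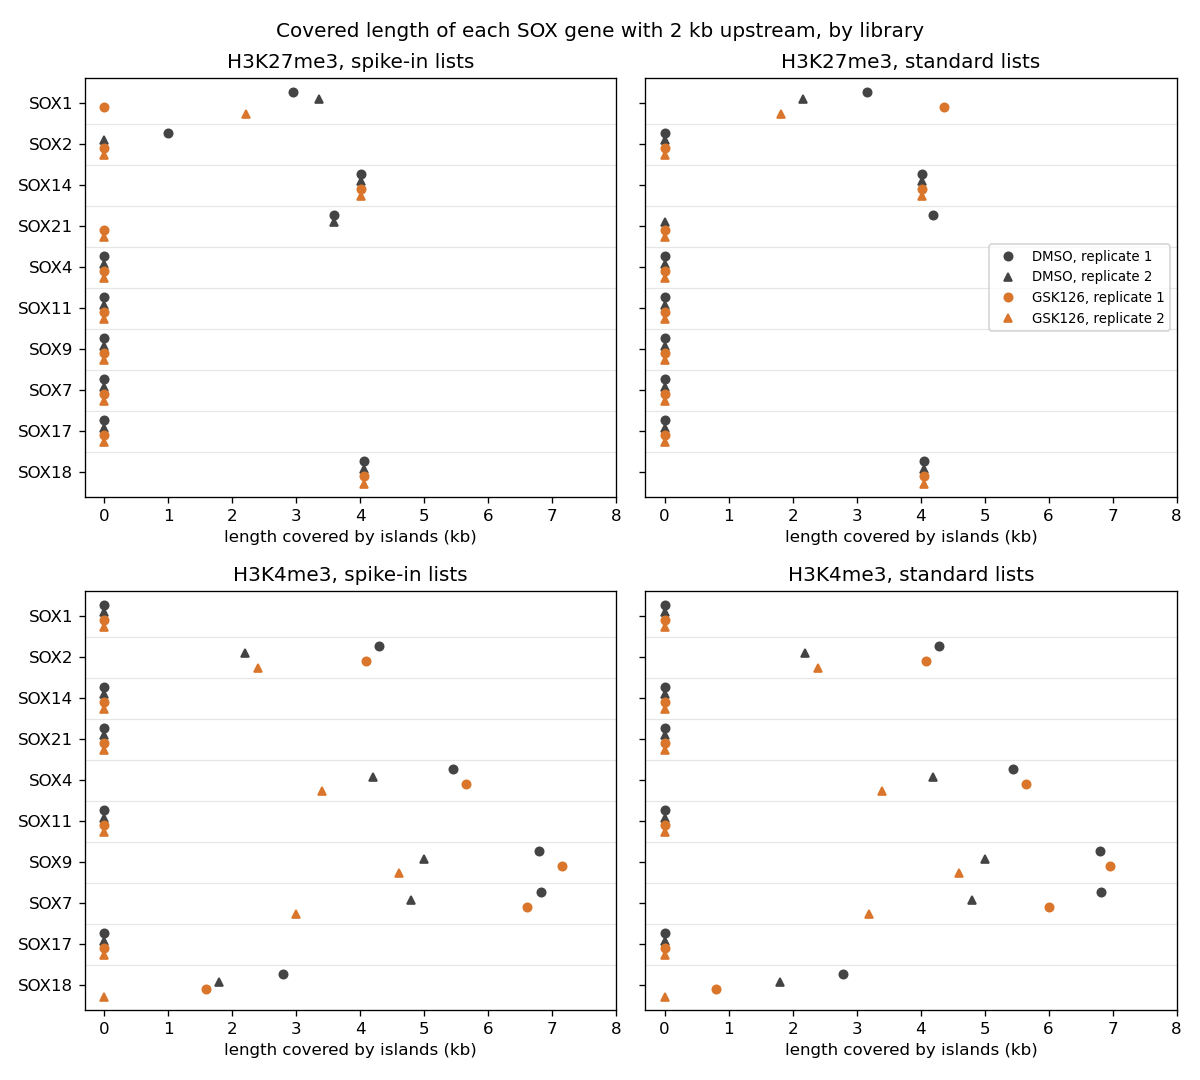
The length in kb of each SOX gene and its upstream 2 kb that lay in islands (horizontal axis) is plotted for each mark and normalization, under DMSO in grey, GSK126 in orange, replicate 1 as circles and replicate 2 as triangles. SOX14 and SOX18 were covered whole by H3K27me3 in every library, SOX21 held H3K27me3 under DMSO only, and SOX2, SOX4, SOX9 and SOX7 held H3K4me3 in every library.

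Under DMSO, the 10 genes differed in state in the standard lists. Islands of H3K27me3 covered the starts of SOX1, SOX14 and SOX18 in both libraries, 3 of 10 against 13.8% of all protein-coding genes. At SOX1 in replicate 2 the island ended only 0.137 kb past the start, and in the spike-in list of that library it ended 0.263 kb before the start. Islands of H3K4me3 covered the starts of SOX2, SOX4, SOX7, SOX9 and SOX18, 5 of 10 against 55.9%. SOX18 was the 1 gene whose start lay in islands of both marks in every DMSO library, which held for 2.51% of all genes. SOX11 and SOX17 had no island of either mark over their region in any of the 14 lists, 2 of 10 against 13.9%. SOX21 was covered by H3K27me3 in some DMSO lists only. These counts are few, and nothing particular to the SOX genes is read from them.

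SOX1 and SOX2, members of the SOXB1 subgroup that keep neural progenitors undifferentiated, carried different marks. SOX1 (chromosome 13, 112721463 to 112726020, plus strand) lay between large H3K27me3 islands rather than under one. In DMSO replicate 1 of the standard lists, an island of 17.2 kb ended 0.537 kb inside the gene and another of 14 kb began 3.938 kb from the start. The covered length in the spike-in lists was 2958 bp under DMSO and 0 under GSK126 in replicate 1, and 3358 bp and 2220 bp in replicate 2. Under the standard normalization it was 3158 bp under DMSO and 4358 bp under GSK126 in replicate 1, and 2158 bp and 1820 bp in replicate 2. Thus the spike-in ratio was 0 and 0.661 and the standard ratio 1.38 and 0.843, and the replicates of the standard lists lay on either side of no difference. The upstream island that reached the start of SOX1 was listed under GSK126 in the standard list of replicate 1. It was not listed over the region in the standard list of replicate 2 or in either spike-in list. In the GSK126 spike-in list of replicate 1 the nearest island lay 2.463 kb upstream of the start, outside the counted region. The nearest island lay 2.263 kb upstream in the GSK126 standard list of replicate 2. The spike-in ratio of 0 thus means no island inside the region, while an island remained just upstream of it. The islands around SOX1 also overlapped SOX1-OT, a long noncoding RNA that overlaps the gene on the same strand, and the mark at these transcripts cannot be told apart. No H3K4me3 island lay within 459 kb of the start of SOX1 in any list.

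SOX2 (chromosome 3, 181429713 to 181432224, plus strand), also known as a pluripotency factor, carried H3K4me3 over its start in every library. The covered length of its 4512-bp region was 4288 bp under DMSO and 4088 bp under GSK126 in replicate 1 under both normalizations. In replicate 2 it was 2200 bp under DMSO and 2400 bp under GSK126. The replicates differed more than the treatments did, with 71.9% ± 32.7 (SD, n = 2) of the region covered under DMSO and 71.9% ± 26.5 under GSK126. An H3K27me3 island of 1000 bp began 0.488 kb inside SOX2 in the DMSO spike-in list of replicate 1 and in no other list. Its score of 44.5 was close to 41.3, the lowest score in that list, and it ranked 33940 of 35901. SOX2 lies inside the transcribed region of SOX2-OT, a noncoding RNA of the same strand.

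SOX14 and SOX21, the SOXB2 members, are repressors that act in neurons of the spinal cord and brain, and both carried H3K27me3 under DMSO but differed under GSK126. SOX14 (chromosome 3, 137483157 to 137485176, plus strand) was covered over all 4020 bp of its region in all 8 H3K27me3 lists, with no H3K4me3 island within 254 kb of its start. SOX14 and SOX18 were the 2 members covered whole in every H3K27me3 list, which held for 131 of 20090 genes, or 0.652%. A short region is more readily covered whole, and theirs were 4.02 and 4.058 kb long against a median of 29.3 kb over all genes. An H3K27me3 island anywhere in the region in all 8 lists held for the same 2 members and for 15.5% of genes. The island over SOX14 was 14 kb long under DMSO and 13 kb under GSK126 in replicate 1 of the standard lists, and 13 kb and 13.4 kb in replicate 2. In the spike-in lists its length was 15.2 kb and 12 kb in replicate 1 and 14 kb and 12.2 kb in replicate 2. The island stayed listed in every library, shorter under GSK126 in both replicates of the spike-in lists, and it also overlapped LINC01210, a long noncoding RNA that starts 5.326 kb downstream.

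The score of the SOX14 island differed more than its length. A score measures how improbable the tag counts of an island are: for every window the Poisson probability is taken as a negative natural log, and the windows are added up. Scores may be set side by side where both libraries hold the same number of tags. Equal tag numbers also take out any difference in the total amount of the mark. The authors reported lower total H3K27me3 in PC9 cells under GSK126 by western blot and mass spectrometry. A higher score in the standard lists therefore does not show a gain of the mark. In the standard lists the score within the SOX14 region was 207 under DMSO and 378 under GSK126 in replicate 1, and 274 and 1021 in replicate 2. Both replicates were higher under GSK126, by 0.87 and 1.90 on the log2 scale, with a mean of 1.38 ± 0.73 (SD, n = 2). Of 4114 protein-coding genes with an H3K27me3 island in all 4 standard lists, 96.7% had a lower mean difference than SOX14, and 40.6% were higher in both replicates. By score, the whole island ranked 2868 of 26380 under DMSO and 1999 of 22124 under GSK126 in replicate 1 (10.9% and 9.04% of the list), and 2541 of 33341 and 1010 of 22624 in replicate 2 (7.62% and 4.46%).

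SOX21 (chromosome 13, 95361876 to 95364799, minus strand) had a shorter and weaker H3K27me3 island, which was not listed under GSK126. In the spike-in lists 3599 bp of its 4924-bp region were covered in both DMSO libraries and 0 in both GSK126 libraries. SOX21 was thus the 1 member of 4 tested whose covered length was at most 0.5 of that under DMSO in both replicates, against 55.3% of 5352 genes covered over at least 1000 bp. The standard lists gave a covered length of 4199 bp under DMSO in replicate 1 and 0 in the other libraries. That island scored 57.1, where the lowest score in the list was 56.7, and it ranked 26226 of 26380, close to the threshold of the list. The nearest islands under GSK126 lay 3.2 to 3.8 kb from the start of SOX21. SOX21-AS1, a noncoding RNA of the other strand, is annotated at the same locus.

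**Figure D2:**
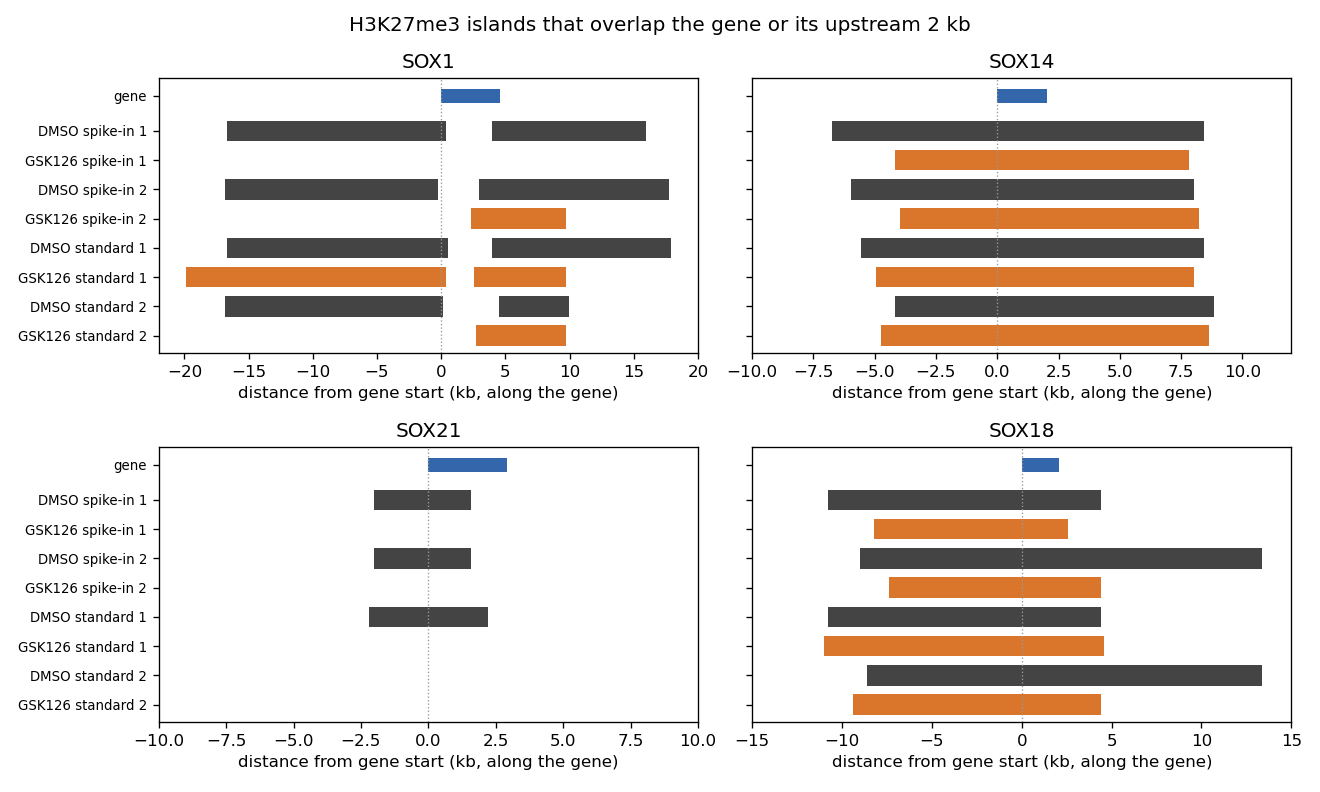
H3K27me3 islands (grey for DMSO, orange for GSK126) are drawn to scale against distance in kb from the start of SOX1, SOX14, SOX21 and SOX18 along each gene, with 1 row per list, the replicate given by the last digit of its name and the gene body in blue. Islands lay on both sides of SOX1, covered SOX14 and SOX18 whole in every row, and were drawn at SOX21 for DMSO only.

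SOX4 and SOX11 form most of the SOXC subgroup, known from neuronal differentiation and, for SOX4, from many carcinomas. SOX4 (chromosome 6, 21593982 to 21598850, plus strand) was covered by H3K4me3 over 5450 bp under DMSO and 5650 bp under GSK126 in replicate 1, and over 4200 bp and 3400 bp in replicate 2. The same lengths were found under both normalizations, and the difference between treatments was of opposite sign in the 2 replicates. Its island was among the strongest of the members, at rank 1285 of 23875 under DMSO in replicate 1 and 1260 of 18420 in replicate 2. No H3K27me3 island lay within 68.4 kb of the start of SOX4. SOX11 (chromosome 2, 5832516 to 5841517, plus strand) had no island of either mark, and its nearest H3K27me3 islands lay at 5.916 to 18.3 kb from the start. With DMSO that distance was 5.916 and 6.916 kb in the spike-in lists of replicates 1 and 2, and under GSK126 it was 18.3 and 17.9 kb. In the standard lists it was 12.5 kb under both treatments in replicate 1, and 6.916 kb under DMSO and 12.7 kb under GSK126 in replicate 2. Its nearest H3K4me3 island lay 209 to 1173 kb away.

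SOX9, the SOXE member and a factor of cartilage, testis and several epithelia including the lung, had the highest H3K4me3 scores of the 10 genes in each library. SOX9 (chromosome 17, 70117161 to 70122557, plus strand) was covered over 6800 bp under DMSO in replicate 1, and over 6957 bp and 7157 bp under GSK126 in the standard and spike-in lists. In replicate 2 the covered length was 5000 bp under DMSO and 4600 bp under GSK126 in both lists. In the standard lists the island ranked in the top 3.35% of islands under DMSO and 3.60% under GSK126 in replicate 1, and in the top 2.26% and 2.64% in replicate 2. The nearest H3K27me3 island lay at least 62 kb from the start of SOX9, and in the spike-in list of GSK126 replicate 1 it lay 959 kb away. SOX9 lies within SOX9-AS1, a noncoding RNA of the other strand, and the mark at these transcripts cannot be told apart.

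The SOXF members SOX7, SOX17 and SOX18, known for roles in endothelium and, for SOX17, in endoderm, showed a different state each. SOX7 (chromosome 8, 10581278 to 10588021, minus strand) was covered by H3K4me3 over 6821 bp under DMSO in replicate 1, and over 6000 bp and 6600 bp under GSK126 in the standard and spike-in lists. In replicate 2 its covered length was 4800 bp under DMSO and 3200 bp and 3000 bp under GSK126. The length was therefore smaller under GSK126 in both replicates, with ratios of 0.880 and 0.667 in the standard lists, where the medians over 13122 genes were 0.905 and 0.946. The nearest H3K27me3 island lay 111 to 113 kb from its start. SOX17 (chromosome 8, 55370495 to 55373452, plus strand) had neither mark, its nearest H3K4me3 island lay 74.7 to 75.5 kb away and its nearest H3K27me3 island 545 to 546 kb away.

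SOX18 (chromosome 20, 62678935 to 62680992, minus strand) carried both marks under DMSO. H3K27me3 covered all 4058 bp of its region in all 8 lists. The H3K27me3 island was 15.2 kb under DMSO and 15.6 kb under GSK126 in replicate 1 of the standard lists, and 22 kb and 13.8 kb in replicate 2. In the spike-in lists it was 15.2 kb and 10.8 kb in replicate 1 and 22.4 kb and 11.8 kb in replicate 2. The H3K4me3 island was much weaker than those of the other 4 members with that mark, at rank 14878 of 23875 under DMSO in replicate 1 and 13634 of 18420 in replicate 2.

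Under GSK126, the H3K4me3 island at SOX18 was shorter or not listed. It covered 2792 bp under DMSO in replicate 1, 1600 bp under GSK126 in the spike-in list and 800 bp in the standard list. In replicate 2 it covered 1800 bp under DMSO and 0 under GSK126 in both lists. Under the standard normalization SOX18 was the 1 member of 5 tested with a ratio of 0.5 or less in both replicates, 0.287 and 0, whereas 0.472% of 13122 genes were at or below that ratio. Under the spike-in normalization no member was at or below it, against 0.549% of genes, since the SOX18 ratio was 0.573 in replicate 1. Both shares were taken over genes with H3K4me3 islands of any strength, whereas the SOX18 island ranked at 62.3% and 74.0% of the DMSO lists. A share among genes with islands as weak was not computed. In replicate 1 the GSK126 spike-in list held fewer tags but gave the longer covered length at SOX18, so the ratio depended on the list used. The score in the region was 151 under DMSO and 50 under GSK126 in replicate 1 of the standard lists, and 69.9 under DMSO and no island in replicate 2, where the lowest score in the GSK126 list was 22.6. The start of SOX18 was inside an H3K4me3 island in both DMSO libraries, in the GSK126 spike-in list of replicate 1, and in no other GSK126 list. Under GSK126 the standard lists thus left 2 of 10 member starts, SOX14 and SOX18, in H3K27me3 islands of both libraries (11.4% of all genes) and 4 in H3K4me3 islands (55.6%). No member start was covered by both marks in every GSK126 library, against 2.19% of all genes.

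The region upstream of SOX18 is shared. TCEA2, which encodes a transcription elongation factor, starts 197 bp away on the plus strand, and the islands of both marks over the start of SOX18 under DMSO also covered the start of TCEA2. The mark at these 2 genes therefore cannot be told apart. Each mark was read in a separate library from many cells, so whether both lay on the same allele cannot be told either.

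**Figure D3:**
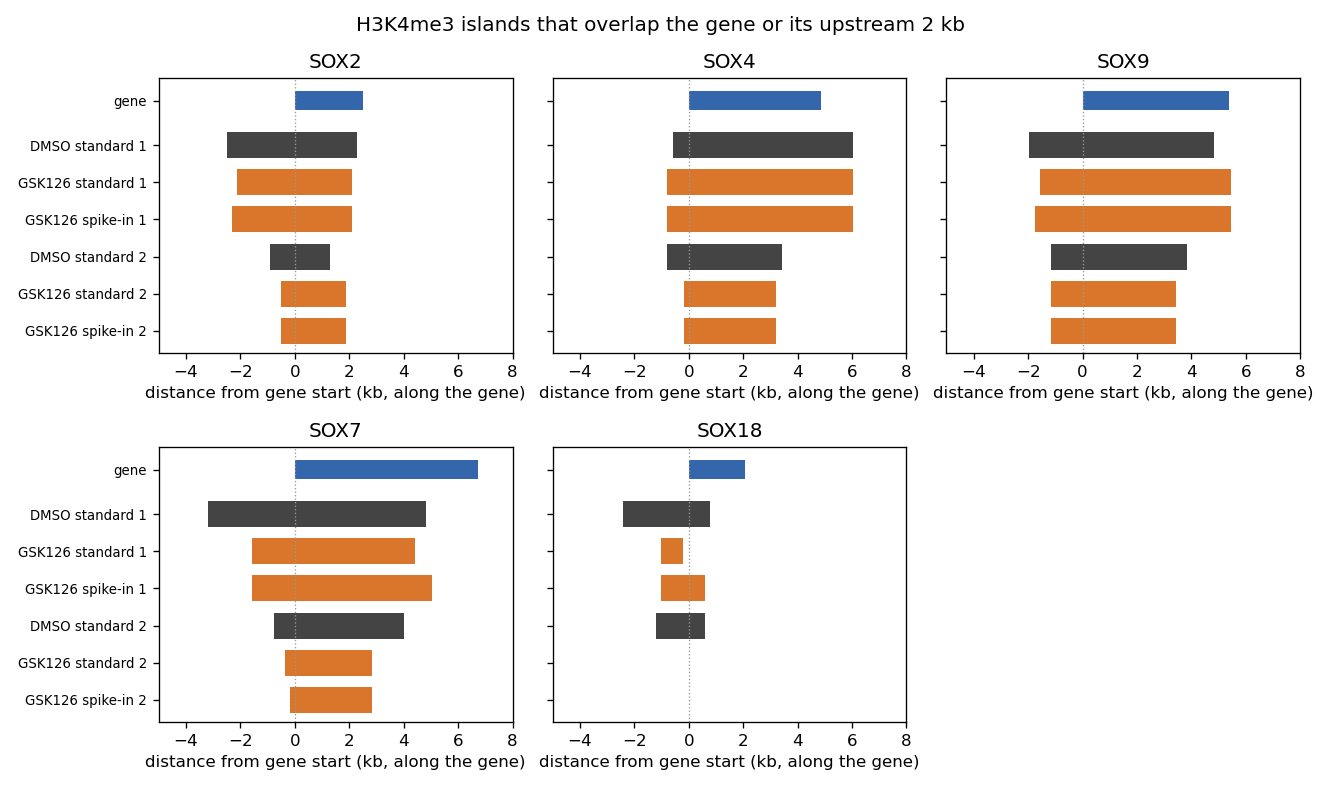
H3K4me3 islands (grey for DMSO, orange for GSK126) are drawn to scale against distance in kb from the start of SOX2, SOX4, SOX9, SOX7 and SOX18 along each gene, with the gene body in blue, 1 row per list and the replicate given by the last digit of its name. The islands of SOX2, SOX4, SOX9 and SOX7 covered the start in every row, whereas the SOX18 island was shorter under GSK126 in replicate 1 and absent from both GSK126 rows of replicate 2.

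At an equal number of tags, the members with H3K27me3 did not move together. The standard H3K27me3 score in the SOX18 region was 361 under DMSO and 378 under GSK126 in replicate 1, and 398 and 513 in replicate 2, a log2 difference of 0.22 ± 0.21 (SD, n = 2). In the SOX1 region it was 146 and 190 in replicate 1 and 141 and 37 in replicate 2, a difference of −0.78 ± 1.64 on the log2 scale, and the replicates were of opposite sign. The median over SOX1, SOX14 and SOX18 was 0.22, and the median over all 4114 genes was −0.02. Within the region, SOX14 and SOX18 were higher under GSK126 in both replicates. None of the 3 members was lower in both, against 39.7% of the 4114 genes. Only genes with an island in every standard list entered this count, so a member without an island under GSK126 could not be counted as lower. SOX21, whose island was in the DMSO standard list of replicate 1 alone, was left out in this way. With 3 members no difference from all genes is read from the count. The scores within the region were prorated to it. The score of the whole SOX18 island was 1351 under DMSO and 1454 under GSK126 in replicate 1, and 2160 and 1744 in replicate 2, where the island was shorter under GSK126. Its rank was lower in both replicates, at 5.60% of the list under DMSO and 7.65% under GSK126 in replicate 1, and 2.77% and 8.27% in replicate 2, so the direction at SOX18 depended on the measure.

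The H3K4me3 scores of SOX2, SOX4, SOX9 and SOX7 differed little between treatments in replicate 1 and were lower under GSK126 in replicate 2. SOX9 scored 6587 under DMSO and 6677 under GSK126 in replicate 1, and 2049 and 1786 in replicate 2. SOX4 scored 4580 and 4980 in replicate 1, and 1397 and 1223 in replicate 2. SOX7 scored 2350 and 2363, and 443 and 384. SOX2 scored 1766 and 1769, and 539 and 356. Within the region all 4 genes were thus slightly higher under GSK126 in replicate 1 and lower in replicate 2, the shallow one. For 2 of them the direction in replicate 1 held only within the region, since the whole islands scored 2756 under DMSO and 2363 under GSK126 at SOX7 and 1977 and 1818 at SOX2. The mean log2 differences were −0.09 ± 0.15 for SOX9, −0.04 ± 0.22 for SOX4, −0.10 ± 0.15 for SOX7 and −0.30 ± 0.43 for SOX2 (SD, n = 2), and each was smaller than its SD. Their median was −0.09 against 0.01 over 13452 genes with an H3K4me3 island in all 4 standard lists. Of those genes 28.5% were higher and 23.4% lower in both replicates, and none of the 4 members was among either. SOX18 had no island in the GSK126 standard list of replicate 2, so it could not enter this count. Over all 13452 genes the median was 0.09 in replicate 1 and −0.08 in replicate 2, the same signs as in the 4 members.

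**Figure D4:**
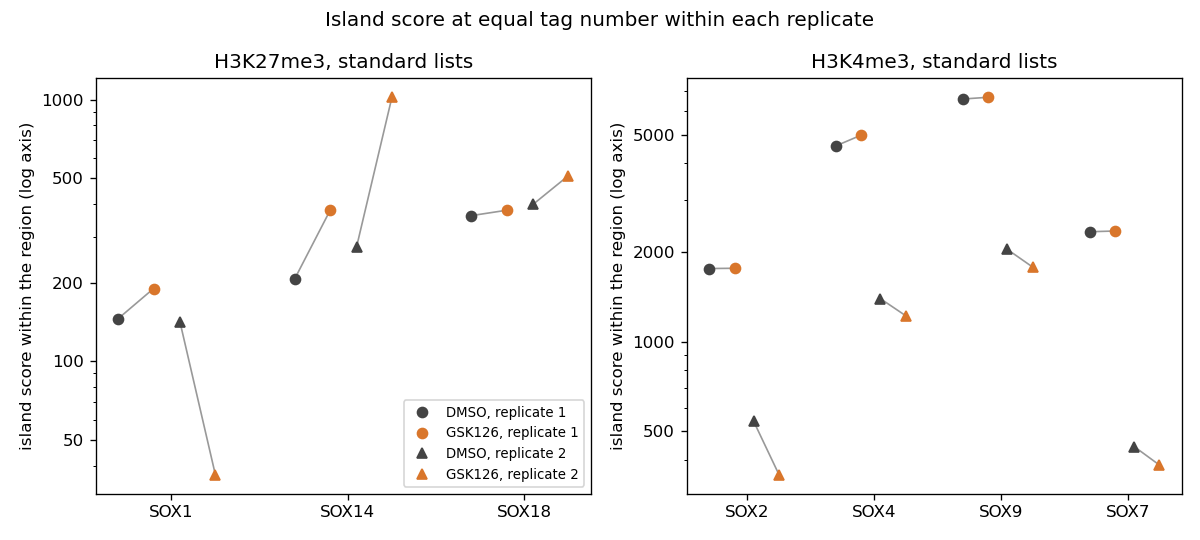
The island score within the region (log axis, no unit) is plotted for the members with an island in all 4 standard lists of a mark, under DMSO in grey, GSK126 in orange, replicate 1 as circles, replicate 2 as triangles and a line joining the libraries of a replicate. SOX14 was higher under GSK126 in both replicates, SOX1 was higher in replicate 1 and lower in replicate 2, and the H3K4me3 scores of replicate 2 lay below those of replicate 1 for each gene.

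Scores cannot be set side by side in the spike-in lists, where the tag numbers differed. For SOX14 and SOX18 each score was therefore converted to the number of tags that, if equal in all windows of the island, would give that score at the density of the list. At SOX14 this was 9.49 tags per window under DMSO and 3.88 under GSK126 in replicate 1, and 15.3 and 8.55 in replicate 2, ratios of 0.409 and 0.558. At SOX18 it was 14.5 and 4.86 in replicate 1 and 20.1 and 5.28 in replicate 2, ratios of 0.335 and 0.263. These are averages over islands called separately in each library, which were shorter under GSK126 (11.8 kb against 22.4 kb at SOX18 in replicate 2), so the ratios are not differences over 1 fixed stretch and the genes are not ranked by them. Under the standard normalization the tags per window at SOX14 went the other way, from 8.42 under DMSO to 12.5 under GSK126 in replicate 1 and from 10.7 to 25.8 in replicate 2, and the ratios at SOX18 were 1.03 and 1.18. The conversion was checked on the same H3K27me3 libraries before and after tags were removed from the GSK126 library, where the median ratio over 1736 and 4790 islands was 1.07 and 1.05 times the share of tags kept. Single islands spread around it, with 5th to 95th percentiles of 0.254 to 0.367 around a share of 0.282 in replicate 1 and of 0.257 to 0.371 around 0.293 in replicate 2.

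Summed over the 10 SOX genes, H3K27me3 islands of the spike-in lists covered 15.6 kb under DMSO and 8.08 kb under GSK126 in replicate 1, and 15.0 kb and 10.3 kb in replicate 2. The log2 ratio was −0.75 ± 0.29 (SD, n = 2), lower under GSK126 in both replicates. Against the DMSO standard lists it was −0.46 ± 0.67, and in replicate 2 the sums were then alike, 10.2 kb under DMSO and 10.3 kb under GSK126. In the standard lists the sums were 15.4 and 12.4 kb, and 10.2 and 9.90 kb, with a log2 ratio of −0.18 ± 0.19. Because SOX14 and SOX18 were covered whole throughout, the differences in these sums came from SOX1, SOX2 and SOX21. Among genes with at least 1000 bp covered under DMSO, the median spike-in ratio of the covered length was 0.324 and 0.299 in replicates 1 and 2 over 5352 genes. Over the 4 such members it was 0.5 and 0.831, but no member lay near 0.5 in replicate 1. The ratios there were 0 at SOX1 and SOX21 and 1 at SOX14 and SOX18. In replicate 2 SOX1 was at 0.661 and the others were unchanged. A ratio stays at 1 while the island reaches past both ends of the region. These medians thus do not show that the SOX genes kept more H3K27me3 than other genes. The standard ratios had medians of 0.915 and 0.758 over 4888 genes and of 1 and 1 over 3 members, and none of these 3 was at or below 0.5 in both replicates, against 14.5% of genes.

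H3K4me3 islands covered 26.2 kb of the 10 genes under DMSO in replicate 1, and 25.1 kb under GSK126 in the spike-in list and 23.5 kb in the standard list. In replicate 2 they covered 18 kb under DMSO and 13.4 and 13.6 kb under GSK126. The log2 ratios were −0.24 ± 0.26 for the spike-in lists and −0.28 ± 0.18 for the standard lists (SD, n = 2). Over all 13122 genes with at least 1000 bp covered under DMSO the median ratio was also below 1, at 0.946 and 0.909 in the spike-in lists, and over the 5 such members it was 0.968 and 0.810. No member had at least 2 times the covered length of DMSO in both replicates for either mark, and among all genes this held for 0.0328% and 1.22% in the spike-in and standard H3K27me3 lists and for 0.031% and 0.0537% in those of H3K4me3.

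The other 9 SOX genes showed the same range of states, apart from the start covered by both marks. Their starts were covered by H3K27me3 in both DMSO standard lists at SOX3, SOX8 and SOX10 and by H3K4me3 at SOX6, SOX12, SOX13 and SOX15, so that 6 of all 19 genes carried the first, 9 the second and 1, SOX18, carried both. SOX10, a neural crest factor, resembled SOX21 in that its covered length in the spike-in lists was 8629 and 8429 bp under DMSO and 0 under GSK126 in both replicates. Unlike SOX21, it also differed in both replicates of the standard lists, with 9829 bp under DMSO and 429 bp under GSK126 in replicate 1 and 8429 bp and 0 in replicate 2. SOX8, like SOX9 and SOX10 a SOXE gene, resembled SOX14 in the standard lists. It was covered over all 7210 bp in each, with a score of 702 under DMSO and 1197 under GSK126 in replicate 1 and 998 and 2250 in replicate 2. SOX3, a SOXB1 gene, was covered over 3085 bp under DMSO and 0 under GSK126 in replicate 1 of the spike-in lists and over 4085 bp in both libraries of replicate 2.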

How the data were processed

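ChIP-seq of H3K27me3 and H3K4me3 in PC9 cells was analysed from 14 deposited island lists of 8 libraries. According to the study's methods and the labels, the authors aligned 50-nt single-end reads to hg19 (GRCh37) with BWA and SAMtools 0.1.18, and kept unique alignments with a mapping quality above 25. They called islands with SICER 1.1 for each library without pooling, with 200-bp windows, gaps of 600 bp (H3K27me3) or 200 bp (H3K4me3), a random background and an E-value of 1. Each deposited score is the island score of SICER, a sum of negative natural logs of Poisson probabilities. No tag counts per region were used here, so no counting intervals were computed.

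Groups came from the labels. Replicate numbers came from the study's supplementary tag table, and the pairing of replicates follows the authors' removal of tags replicate by replicate. The paper describes its PC9 replicates as biological replicates, and whether they came from separate cultures is not given in the labels.

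Gene regions were taken from GENCODE lifted to GRCh37. Covered length, the score prorated by the covered bases, and ratios of GSK126 over DMSO within a replicate were computed with Python 3.11.15, NumPy 2.4.6 and SciPy 1.17.1, and plotted with Matplotlib 3.10.9. A gene counted as eligible if at least 1000 bp were covered in both DMSO libraries. Tag density was found from islands 1 or 2 windows long, whose scores were matched to within 0.0001, apart from 2 of 24 in the DMSO spike-in list and 1 of 39 in the GSK126 standard list of H3K27me3 replicate 2. Covered length, the prorated score, the tag density and the conversion of scores to tags were tested on simulated data. Upstream sequence was read from the GRCh37 genome, and that of the other members is not reported here.

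The genes named are all 10 members, the other SOX genes with a start covered in both DMSO libraries, and at most 2 neighbouring genes that shared an H3K27me3 island with a member. Noncoding RNAs annotated at SOX2, SOX9 and SOX21 and the marker genes of cell types are named as well. Members, lists and comparisons were chosen with earlier results of these data known. The alternatives were a stricter score threshold (2 times the lowest score of a list), minimum island lengths of 2000 and 600 bp, other gene regions, a ratio of 0.75, DMSO standard lists for the spike-in comparison, leaving out a replicate and leaving out the pairing. SRY was not analysed here.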

Additional observations from a re-analysis of the deposited data

How the results depend on the processing

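Over 85 recomputed values of 12 results, 68 kept their direction and stayed within the replicate spread or within 1.5 times the count. For the H3K27me3 standard lists, the log2 ratio of the summed length (−0.18) became 0.049 with the stricter score threshold and 0.13 over gene bodies without the upstream 2000 bp, both reversed, and −0.42 within 2000 bp either side of the start. The count of members at or below a ratio of 0.5 in the H3K27me3 spike-in lists (1) was 2 within 2000 bp either side of the start, 2 at a ratio of 0.75, and 0 against the DMSO standard lists. It ranged from 1 to 3 when a replicate was left out, and in replicate 1 alone SOX1 and SOX2 joined SOX21. The same count for the H3K27me3 standard lists (0) ranged from 0 to 1, with SOX21 in replicate 1 alone. For the H3K4me3 spike-in lists (0) it was 1 with the stricter threshold, 1 at a ratio of 0.75, and ranged from 0 to 1 without a replicate. For the H3K4me3 standard lists (1) it was 0 over gene bodies alone. The median log2 score difference of H3K27me3 (0.22) was 1.27 over gene bodies, 0.80 within 2000 bp either side of the start, and 0.36 to 0.38 when a replicate was left out. That of H3K4me3 (−0.09) ranged from −0.20 without replicate 1 to 0.014 without replicate 2, a reversal. The causes were not tested. Without the replicate pairing, the log2 ratio of the H3K27me3 spike-in sums was −0.74 in place of −0.75, and no other sum changed direction.

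The lists show only what passed a threshold, no treatment difference was tested with 2 pairs of libraries, H3K4me3 replicate 2 was shallow, and the SOX21 and SOX2 islands of H3K27me3 were near the lowest score of their lists.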
